A study of Mus musculus with 11 samples.

Results

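The transcription factors IRF4 and PU.1 were compared in activated mouse B cells by chromatin immunoprecipitation with sequencing (ChIP-seq), in which DNA recovered with an antibody against a protein is sequenced and places of piled-up reads are called peaks. Purified splenic B cells came from B1-8i mice of strain 129, whose gene-targeted B cell receptor recognises the hapten NP. They were cultured for 1 day with CD40L, the cytokines IL-5, IL-4 and IL-2, and the antigen NP-Ficoll at 0.01 ng/mL, which the series describes as activated but not yet differentiated. All libraries compared share this strain, stimulation and time, and differ in the antibody: 3 libraries were made with anti-Irf4 and 2 with anti-PU.1, so 5 of the 11 samples of the series entered. The authors' background was input DNA pooled from 2 preparations, from peripheral and from immature B cells, and it entered no comparison. Fragments averaged about 250 bp, and sequencing used a Genome Analyzer 2. The labels do not say whether replicates came from separate mice or cultures, so a p-value over libraries reflects only how these libraries varied, and that variation may be technical.

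A place is a peak of the authors' combined list for a factor, here called the group list, which held 2496 IRF4 places and 21966 PU.1 places. An IRF4 place was joint when a PU.1 place had its peak position less than 200 bp away. By this rule 1417 places were joint, 1079 IRF4 places were IRF4-alone and 20549 PU.1 places were PU.1-alone. The library lists behind them differed in length: IRF4 replicate 1 held 825 peaks against 9326 in replicate 2 and 8929 in replicate 3, and the PU.1 libraries held 27321 and 38052. IRF4 replicate 1 therefore stood apart, and the main comparisons are given with and without it. Read depth is unknown, since the lists hold positions and the authors' enrichment (a linear fold over input) but no counts.

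IRF4 is a transcription factor of the interferon regulatory factor family, needed for plasma cell formation and class switching. On its own it binds its core site GAAA weakly, and it is known to be recruited by partners: by the Ets factors PU.1 and SpiB to an Ets-IRF composite element (EICE), and by BATF with a Jun protein to an AP-1-IRF composite element (AICE). PU.1, encoded by Sfpi1, is an Ets factor that binds purine-rich DNA around GGAA and shapes enhancers in B cells and myeloid cells.

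The sequences below show these elements at places picked from those that carry one, some leading by rank and others near listed genes. Each is mm9 reference sequence, given 5′ to 3′ on the strand that carries the element, with the matched letters in capitals and 15 bases on either side. The elements searched, on both strands of the 200 bases around a peak position, were GGAANNGAAA for the EICE, TGANTCA for AP-1, GAAA directly followed by TGANTCA, or TTTC and TGANTCA with 4 bases between them, for the AICE (each holding an AP-1 match), GAAANNGAAA for the interferon-stimulated response element (ISRE), and GAGGAAGT for a strong PU.1 site. A match describes letters in a window and is not itself a bound site. Some leading places, among them the IRF4-alone place at the Zfp91 promoter, held no element searched. The first group are joint places called in all 5 libraries, and all but the Bach2 place carried the same 10 letters. Among joint places with exactly 1 EICE, 38.6% carried those letters and 34.9% the letters at Bach2.
Snx29 intron, chr16:11386047-11386086, minus strand: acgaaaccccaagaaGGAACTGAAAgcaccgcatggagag
Heg1 intron, chr16:33745744-33745783, plus strand: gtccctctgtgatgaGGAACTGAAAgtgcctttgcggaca
Pax5 intron, chr4:44684058-44684097, plus strand: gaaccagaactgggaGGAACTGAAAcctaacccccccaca
Myc, 14.4 kb after its start, chr15:61831310-61831349, plus strand: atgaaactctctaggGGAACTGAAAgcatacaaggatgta
Dnajb9, 1.72 kb before its start, chr12:45312740-45312779, minus strand: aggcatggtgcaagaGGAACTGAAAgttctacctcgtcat
Bach2 intron, chr4:32445740-32445779, minus strand: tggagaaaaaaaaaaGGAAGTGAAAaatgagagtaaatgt

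The second group are IRF4-alone places that no PU.1 library called, and they carried AP-1, AICE or ISRE letters and no EICE.
Intergenic, nearest start Ezh2, AP-1, chr6:47571203-47571239, plus strand: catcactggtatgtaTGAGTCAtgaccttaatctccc
Intergenic, nearest start Id2, AP-1, chr12:25828587-25828623, plus strand: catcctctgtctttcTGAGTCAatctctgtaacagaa
Intergenic, nearest start Gpr15, AICE, chr16:58697110-58697154, minus strand: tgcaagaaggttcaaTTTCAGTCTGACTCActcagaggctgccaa
Il2ra intron, AICE, chr2:11566948-11566992, plus strand: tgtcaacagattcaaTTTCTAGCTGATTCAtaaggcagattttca
Cd86, 18.7 kb before its start, AICE, chr16:36684867-36684911, plus strand: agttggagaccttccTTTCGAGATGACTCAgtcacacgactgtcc
Ifit1 promoter, ISRE, chr19:34715279-34715318, minus strand: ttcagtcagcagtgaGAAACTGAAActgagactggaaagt
Isg15 promoter, ISRE, chr4:155574981-155575020, minus strand: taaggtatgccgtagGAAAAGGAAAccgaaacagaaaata

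The third group are PU.1-alone places that no IRF4 library called, each with the strong PU.1 site.
Intergenic, nearest start Cd81, chr7:150224649-150224686, minus strand: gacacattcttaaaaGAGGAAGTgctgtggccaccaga
Piwil2 intron, chr14:70802406-70802443, minus strand: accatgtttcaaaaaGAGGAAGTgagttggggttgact
Tbc1d14 intron, chr5:36905957-36905994, minus strand: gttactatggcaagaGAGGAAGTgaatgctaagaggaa

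The overlap share differed between the factors as their list lengths did. The same 1417 pairs are divided by 2496 IRF4 places and by 21966 PU.1 places. PU.1 lay at 56.8% of IRF4 places (1417 of 2496, Wilson 95% interval 54.8 to 58.7%), whereas IRF4 lay at 6.45% of PU.1 places (interval 6.13 to 6.78%). Such intervals cover counting error over regions only. Rebuilding the IRF4 list without replicate 2 or 3, which leaves short lists tied to replicate 1, put the PU.1 share at 78.7% and 78.4%, and without replicate 1 it was 55.1%. Each joint IRF4 place had its own PU.1 partner, so the 1417 joint places were also 1417 different PU.1 places.

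Within the 200 bp that the rule allows, the paired positions lay close together. The median distance between the IRF4 and PU.1 peak positions of a joint place was 28 bp (quartiles 13 and 53 bp), and 289 pairs were less than 10 bp apart. Near the 200 bp limit places were few: 30 IRF4 places had PU.1 at 150 to 200 bp and 19 at 200 to 250 bp. The IRF4-alone places lie at least 200 bp from a PU.1 place by definition. Their median distance to the nearest one was 8.31 kb (quartiles 2.50 and 26.0 kb).

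**Figure D1:**
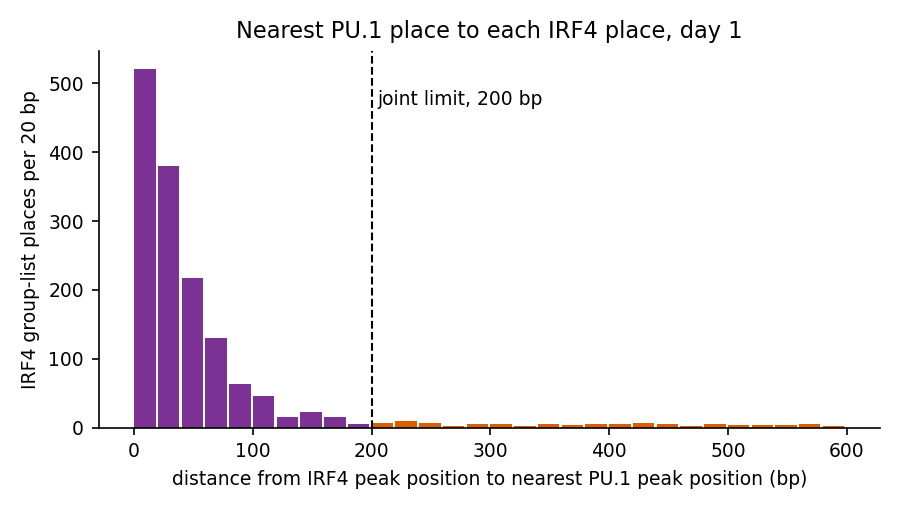
Number of IRF4 group-list places per 20 bp of distance to the nearest PU.1 peak position (x axis, bp), up to 600 bp; purple bars are joint places and orange bars IRF4-alone places, split at the dashed line at 200 bp. Counts fall with distance and are low on both sides of the limit, with 30 places at 150 to 200 bp and 19 at 200 to 250 bp.

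Being alone was partly a matter of the combined list. Of the IRF4-alone places, 892 lacked a peak in both PU.1 libraries and 187 had one in a single PU.1 library. Of the PU.1-alone places, 2032 (9.89%) had a peak in some IRF4 library and 18517 had none. Joint places were called in all 3 IRF4 libraries more often than IRF4-alone places: 461 of 1417 (32.5%, interval 30.1 to 35.0%) against 124 of 1079 (11.5%, interval 9.72 to 13.5%).

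Joint places were concentrated among the strongest peaks of both factors. In the strongest 25% of peaks by enrichment, 82.5%, 52.3% and 50% of the peaks of IRF4 replicates 1, 2 and 3 had PU.1, and in the weakest 25% 72.0%, 11.3% and 9.94%. For PU.1 the strongest 25% had IRF4 at 16.6% and 12.6% of peaks in replicates 1 and 2, and the weakest at 1.17% and 0.589%. The share was higher in the strongest than in the weakest 25% in 5 of 5 libraries, by 23.8 percentage points on average. An exact two-sided sign-flip permutation test over the 5 libraries gave p = 0.063, the smallest it can give, and 0.3 after Benjamini-Hochberg adjustment over 12 tests.

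**Figure D2:**
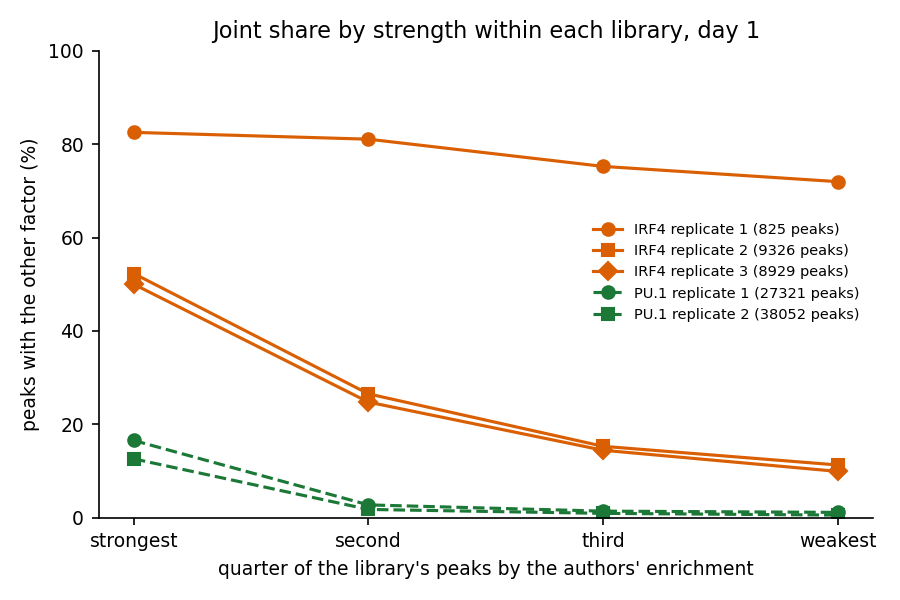
Share of peaks with the other factor's group-list peak less than 200 bp away (y axis, %) in each 25% of a library's peaks ordered by the authors' enrichment (x axis); solid orange lines are the 3 IRF4 libraries and dashed green lines the 2 PU.1 libraries. The share is lowest in the weakest 25% of every library, and IRF4 replicate 1, the 825-peak list, stays at 72.0% there.

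The same held for enrichment within the combined lists, more for PU.1 than for IRF4. At joint places the median PU.1 enrichment was 154-fold in replicate 1 and 228-fold in replicate 2, against 34.8-fold and 46.7-fold at PU.1-alone places. The IRF4 medians were closer: 44.5-fold against 38.4-fold in replicate 2 and 42.1-fold against 38.3-fold in replicate 3. In IRF4 replicate 1 they were 29.1-fold at 601 joint and 26.6-fold at 166 IRF4-alone places.

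The element content separated the classes of place. An EICE lay in 36.0% of joint places (interval 33.5 to 38.5%), in 3.71% of IRF4-alone places (2.73 to 5.01%) and in 12.9% of PU.1-alone places (12.4 to 13.3%). Windows 2 kb to either side of the places held it in 2.01%, 2.32% and 2.02%. With lists rebuilt without IRF4 replicates 1, 2 and 3, the joint share was 35.5%, 46.0% and 47.0%. The IRF4-alone share was then 3.56%, 5.63% and 5.41%.
AP-1 had the opposite order among IRF4 places. It lay in 44.6% of IRF4-alone places (41.6 to 47.6%), in 18.3% of joint places (16.4 to 20.4%) and in 8.01% of PU.1-alone places, beside 6.86%, 5.72% and 5.89% in the windows 2 kb away. Without IRF4 replicates 1, 2 and 3 the IRF4-alone AP-1 share was 44.6%, 52.8% and 52.7%, and the joint share 18.5%, 17.5% and 17.7%. The AICE, the element of BATF with IRF4, lay in 8.25% of IRF4-alone, 2.19% of joint and 0.238% of PU.1-alone places, with 0.278%, 0.176% and 0.192% in the flanking windows.
The strong PU.1 site GAGGAAGT was most frequent at PU.1-alone places, at 27.6% against 14.8% of joint and 1.48% of IRF4-alone places. The flanking windows held 1.34%, 1.48% and 1.30%, so joint places too lay well above their flanks. The ISRE, which binds IRF proteins without an Ets partner, lay in 8.43% of IRF4-alone, 6.70% of joint and 5.64% of PU.1-alone places, each with 2.87 to 2.89% in the flanks. Within single libraries the ISRE went the other way: joint peaks held it more often than peaks without PU.1 in 3 of 3 IRF4 libraries, by 1.97 ± 1.52 percentage points (SD, n = 3; exact two-sided sign-flip p = 0.25, the smallest possible, adjusted 0.429). The EICE letters read backwards (AAAGNNAAGG), searched as a control, lay in 1.41%, 1.30% and 2.30% of joint, IRF4-alone and PU.1-alone places.

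**Figure D3:**
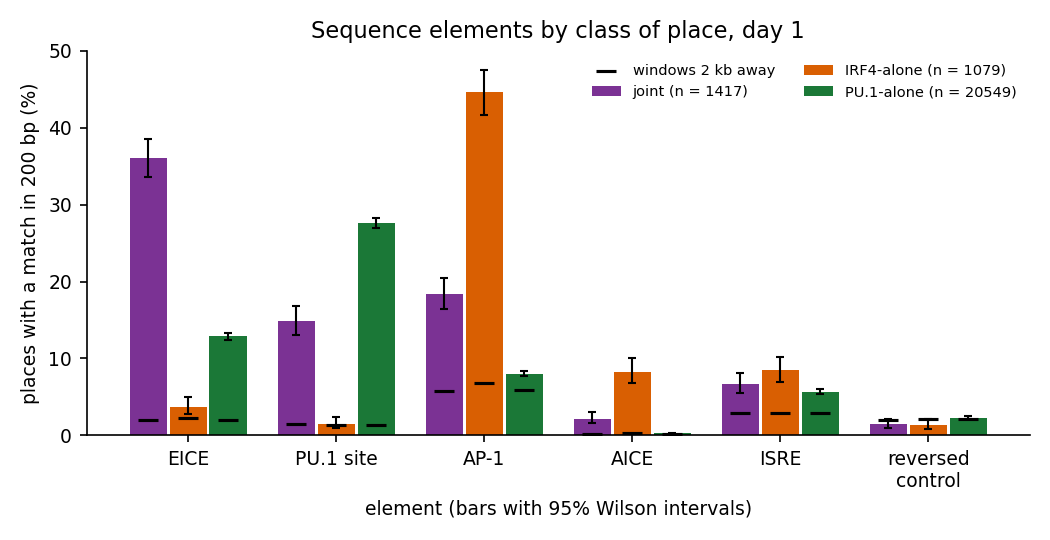
Share of places with each element in the 200 bases around the peak position (y axis, %), by class; bars have Wilson 95% intervals and black dashes mark the share in windows 2 kb to either side. The EICE is highest at joint places (36.0%), AP-1 at IRF4-alone places (44.6%) and the PU.1 site at PU.1-alone places (27.6%).

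Within single libraries the EICE difference had the same direction and a similar size throughout. Joint peaks held an EICE in 45.6%, 30.2% and 31.4% of cases in IRF4 replicates 1, 2 and 3, and peaks without PU.1 in 5.98%, 3.13% and 2.81%. The mean difference was 31.7 ± 6.83 percentage points (SD, n = 3 libraries; exact two-sided sign-flip p = 0.25, the smallest possible, adjusted 0.429). Split by IRF4, the PU.1 peaks held it in 35.4% against 12.5% in replicate 1 and 34.9% against 10.5% in replicate 2. That difference of 23.7 percentage points is the mean of 2 libraries, for which the smallest exact p is 0.5 (adjusted 0.667).

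The AP-1 difference varied in size among the libraries and with the part of the lists used, and the cause was not tested. In IRF4 replicate 1 AP-1 lay in 48.4% of peaks without PU.1 and 16.7% of joint peaks, in replicate 2 in 20.1% and 15.8%, and in replicate 3 in 19.1% and 16.3%. The mean difference of -12.9 ± 16.2 percentage points (joint minus IRF4-alone, SD, n = 3, exact two-sided sign-flip p = 0.25) was smaller than its spread, and without replicate 1 it was -3.57. With the stronger 50% of each list the mean difference was -22.0, and with the top 825 peaks of each library -31.1. In replicate 2, AP-1 lay in 30.4% of the strongest 25% of all peaks and in 11.4% of the weakest, and in replicate 3 in 29.3% and 11.5%. Replicate 2 had 6867 peaks without PU.1, whereas 1061 of the IRF4-alone places of the combined list had a peak in it. Rebuilt without replicate 1, the combined list kept the AP-1 shares within their counting intervals.

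Compared factor against factor over whole libraries, IRF4 peaks carried AP-1 more often and the strong PU.1 site less often than PU.1 peaks. AP-1 lay in 20.4 ± 2.95% of IRF4 peaks (SD, n = 3) and 8.36 ± 0.0387% of PU.1 peaks (n = 2), without overlap of the libraries (exact two-sided permutation p = 0.1, the smallest possible with 3 against 2 libraries, adjusted 0.3). The difference was 12.0 percentage points, and 10.3 without IRF4 replicate 1. The PU.1 site lay in 7.62 ± 4.32% of IRF4 and 25.2 ± 0.885% of PU.1 peaks, also without overlap (exact permutation p = 0.1), a difference of -17.6, and -20.1 without IRF4 replicate 1. For the EICE the libraries overlapped. IRF4 replicate 1 held it in 36.7% of peaks, above both PU.1 libraries (13.8% and 11.5%), while IRF4 replicates 2 and 3 lay below them at 10.3% and 9.91% (difference 6.35, exact permutation p = 1).

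The spacing of the core sites was narrow. Among gaps of 0 to 12 bases between GGAA and a following GAAA, a gap of 2 stood out at 36.0% of joint and 12.9% of PU.1-alone places, and no other gap passed 4.80% at joint places. The reverse order, GAAA and then GGAA 2 bases later, lay in 11.6% of joint and 12.5% of PU.1-alone places, so it did not set joint places apart. At IRF4-alone places these gaps reached 3.71% and 2.78%. Their most frequent spacing was GAAA and a second GAAA 2 bases later, the ISRE letters, at 8.43%. Next to AP-1, GAAA directly before it lay in 4.08% and inverted GAAA (TTTC) with a gap of 4 or 6 bases in 4.26% and 3.34%.

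**Figure D4:**
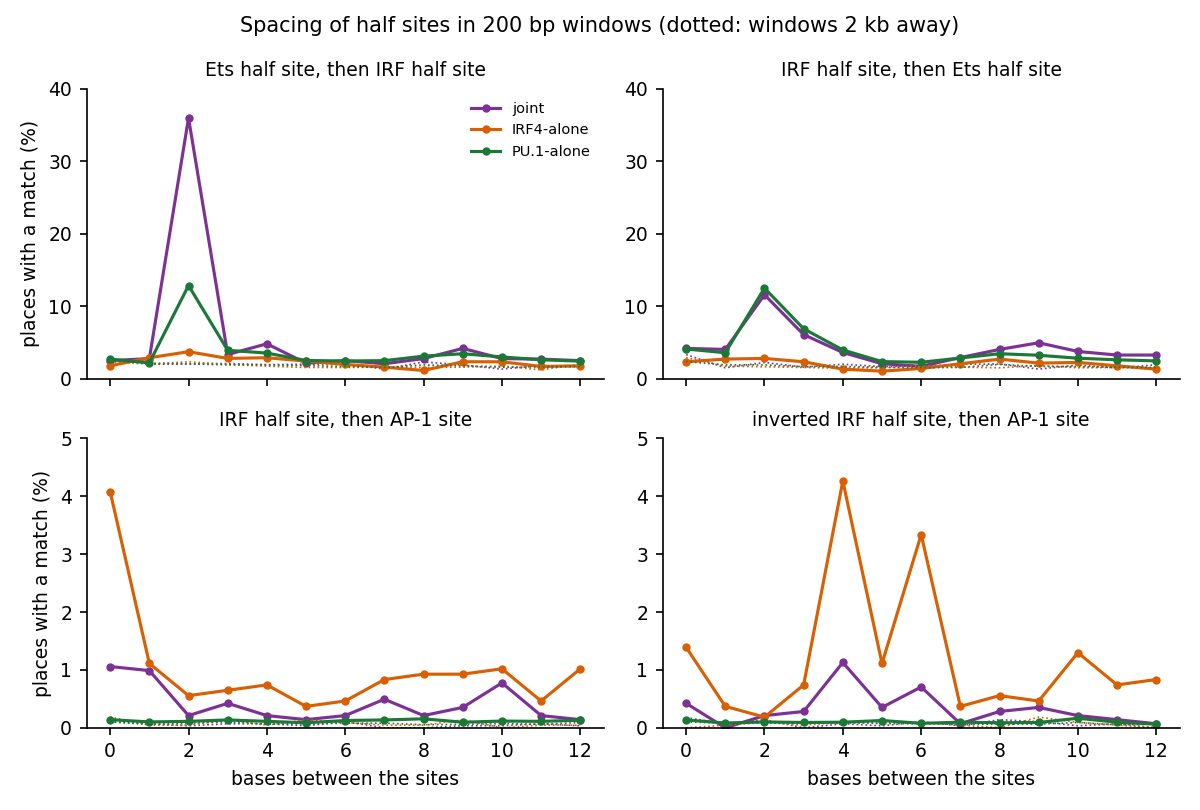
Share of places (y axis, %) with 2 core sites separated by a given number of bases (x axis, 0 to 12), for 4 orders and orientations; colours are the classes and dotted lines the windows 2 kb away, and the lower panels have a y axis to 5%. Joint places peak at a gap of 2 bases for an Ets core site followed by an IRF core site (36.0%), and IRF4-alone places at gaps of 0 (4.08%) and of 4 and 6 bases (4.26% and 3.34%) before an AP-1 site.

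The 2 free bases in the middle of the EICE also varied with the class. Among PU.1 places with exactly 1 EICE, 196 of 686 with CT in the middle were joint (28.6%, interval 25.3 to 32.1%), against 177 of 1078 with GT (16.4%, 14.3 to 18.7%), 16 of 251 with GA (6.37%, 3.96 to 10.1%) and 507 of 3069 over all middles (16.5%). Lists rebuilt without IRF4 replicate 1, 2 or 3 gave 25.9%, 16.0% and 17.5% for CT and 14.3%, 6.03% and 6.49% for GT. Rarer CC had 13 of 42 (31.0%, 19.1 to 46.0%). These letters are the ones in capitals at Snx29, Pax5, Myc and Dnajb9 (CT) and at Bach2 (GT) above.
PU.1 enrichment differed among these middles as well. PU.1 places with CT had a median PU.1 enrichment of 65.1-fold and 79.1-fold in replicates 1 and 2, those with GT 77.6-fold and 83.0-fold, and those with GA 41.8-fold and 55.9-fold. Among the strongest 25% of PU.1 places 168 of 321 with CT were joint (52.3%, 46.9 to 57.7%) and 166 of 570 with GT (29.1%, 25.5 to 33.0%).
Both PU.1 libraries had the same order: 24.9% and 21.8% of peaks with CT carried IRF4, 14.2% and 13.3% with GT, and 5.50% and 3.69% with GA. Joint places with CT were called in all 3 IRF4 libraries in 105 of 191 cases (55.0%, 47.9 to 61.9%), and those with GT in 54 of 173 (31.2%, 24.8 to 38.5%).

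An EICE alone did not mark a PU.1 place as joint. Of 3163 PU.1 places with an EICE, 522 (16.5%) were joint and 2641 were PU.1-alone, and 517 of the latter (19.6%) had a peak in some IRF4 library. Strength separated these further: joint places with an EICE had a median PU.1 enrichment of 217-fold in replicate 1 and 294-fold in replicate 2, and PU.1-alone places with one had 46.4-fold and 56.7-fold. In the strongest 25% of PU.1 places 34.7% of those with an EICE were joint and 14.2% of those without. There the strong PU.1 site went the other way, with 11.1% joint against 23.1% without it.

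The EICE was measured against the peak positions of both factors. Only letters inside the searched window around the combined-list IRF4 position entered, so the distances are bounded by that choice. Whether the EICE lay closer than the window alone would give was not tested. At joint places with 1 EICE the median distance of the peak position from the middle of the element was 20.5, 31.5 and 34.5 bp in IRF4 replicates 1, 2 and 3, and 14.5 and 23.5 bp in PU.1 replicates 1 and 2. Medians along the element lay between -3.5 and 2.5 bp. The searched window reaches equally far to both sides, which itself favours a centred median. Of joint places, 46.6% had no EICE, ISRE or AP-1 match, compared with 47.5% of IRF4-alone and 75.6% of PU.1-alone places.

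Elements of other factors differed less. The RUNX site TGTGGTT lay in 10.2% of joint, 10.6% of IRF4-alone and 6.87% of PU.1-alone places, with 5.08%, 4.63% and 5.25% in the flanks. The NF-kB site, GGGA and TTTCC with 1 base between them, was rare but lay in 1.20% of IRF4-alone places (0.705 to 2.05%) against 0.494% of joint places (0.239 to 1.02%), and the flanks of IRF4-alone places held 0.0927%. These intervals overlap.

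In location the IRF4 classes were alike and PU.1-alone places were more often at promoters. Peak positions lay within 1 kb of a protein-coding gene's transcript start at 8.12% of joint, 8.71% of IRF4-alone and 14.7% of PU.1-alone places. Introns held 43.9%, 43.7% and 42.6%, and intergenic sequence 45.9%, 46.2% and 40.02%. Over libraries the promoter share was 8.78 ± 1.86% for IRF4 (n = 3) and 14.8 ± 0.962% for PU.1 (n = 2), a difference of -5.99 percentage points without overlap (exact two-sided permutation p = 0.1, adjusted 0.3). It was -4.93 without IRF4 replicate 1, and -1.45 when each library was cut to its top 825 peaks. Joint peaks and peaks with IRF4 alone differed by -0.0203 percentage points, with signs that varied among the 3 libraries.
At promoters, AP-1 was less common in IRF4-alone places than elsewhere, in 24 of 94 (25.5%, 17.8 to 35.2%) against 45.3% in introns and 48.6% between genes. The EICE share of joint places changed less, from 31.3% at promoters (23.5 to 40.3%) to 36.98% in introns and 35.7% between genes.

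Nearby genes were those with a place inside them or within 20 kb. Of 22225 protein-coding genes, 1402 (6.31%) had a joint place, 1035 (4.66%) an IRF4-alone place and 11428 (51.4%) a PU.1-alone place. Any IRF4 place was near 2230 genes (10%) and any PU.1 place near 11613 (52.3%). Both a joint and an IRF4-alone place were near 207 genes, 14.8% of the genes with a joint place and 20% of those with an IRF4-alone place. Lists of genes by function were compared with these background shares by counts alone. A long gene has more room for a place, and the background shares were not matched for gene length. Neighbouring genes can share 1 place, and nearness does not show which gene a place acts on.

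**Figure D5:**
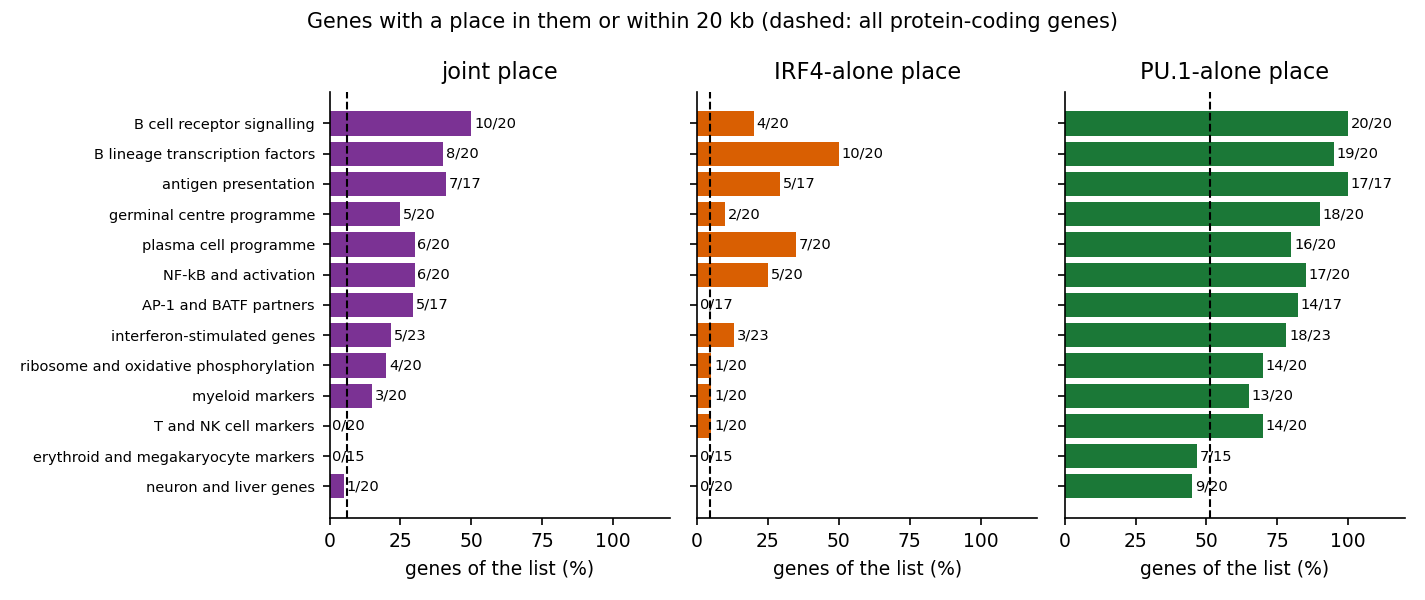
Share of each gene list (rows) with at least 1 joint, IRF4-alone or PU.1-alone place in the gene or within 20 kb (x axes, %), with counts beside the bars; dashed lines mark the share of all protein-coding genes (6.31%, 4.66% and 51.4%). B cell receptor signalling has the longest joint bar (10 of 20), B lineage transcription factors the longest IRF4-alone bar (10 of 20), and the bars of the erythroid and the neuron and liver lists are short or absent in the first 2 panels.

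Of 20 B cell receptor signalling genes, 10 had a joint and 4 an IRF4-alone place, against 6.31% and 4.66% of all genes. All 20 had a PU.1-alone place, against 51.4% of all genes. Sykb, the kinase Syk that relays the receptor's signal, had a joint place 10.5 kb before its start, with IRF4 enrichments of 56.8, 93.5 and 94.3-fold in replicates 1 to 3 and PU.1 enrichments of 1226 and 1906-fold. Those PU.1 values ranked 7 and 2 in the PU.1 libraries, and the peak positions lay 10 bp apart. In an intron of Pik3ap1, the adaptor BCAP that links the receptor to PI3 kinase, a joint place had 57.7, 49.0 and 88.4-fold for IRF4 and 776 and 663-fold for PU.1. Prkcb, the protein kinase C of the NF-kB branch of this pathway, had no joint place but an IRF4-alone place 5.55 kb after its start, at 26.6, 114 and 52.2-fold in IRF4 replicates 1, 2 and 3.

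The B lineage transcription factors held the most IRF4-alone places of the lists: 10 of 20 genes had one and 8 had a joint place, and 7 genes had both. Over all genes 4.66% had an IRF4-alone and 6.31% a joint place. Single IRF4-alone places rested on few libraries. Of 32 named genes with one, the number of such places moved for 29 without IRF4 replicate 2 and for 28 without replicate 3. For most of the 32 it fell to 0 when a library was left out. Among these were Pax5, Mef2c, Runx1, Pou2af1, Klf2, Cd86, Prdm1, Nfkbia, Isg15 and Ifit1. A rebuilt list starts from the lowest-numbered library left, so places called only in replicates 2 and 3 cannot remain when either is left out. Pax5, the factor that maintains B cell identity, had a joint intronic place 40.3 kb after its start with 33.0, 93.2 and 120-fold for IRF4 and 338 and 535-fold for PU.1. Its window held both an EICE and an AICE. A further IRF4-alone place lay 86.5 kb after the start, in IRF4 replicates 2 (45.1-fold) and 3 (58.4-fold).
Ebf1, which specifies the B lineage, had 3 joint and 3 IRF4-alone places, all intronic. The joint place called in all 5 libraries had 34.9, 52.8 and 30.5-fold for IRF4 and 362 and 384-fold for PU.1. The IRF4-alone place 161.9 kb after the start had AP-1 letters and 29.4, 82.9 and 75.3-fold for IRF4.
Bach2, a repressor that delays plasma cell formation, had a joint intronic place with 40.4, 156 and 165-fold for IRF4 and 341 and 684-fold for PU.1. It also had an IRF4-alone place 185.9 kb after its start (28.4, 97.3 and 116-fold). A second, with ISRE and AP-1 letters (58.4, 90.9 and 73.6-fold), had PU.1 in replicate 1 alone, at 19.6-fold.
In Pou2f2, which encodes the octamer-binding factor Oct2, the classes lay side by side. A joint place 2.84 kb after the start had 26.6, 85.2 and 75.3-fold for IRF4 and 368 and 590-fold for PU.1. An IRF4-alone place 1.77 kb after the start, 1016 bp from the nearest PU.1 place, had higher IRF4 enrichment (55.3, 109 and 93.6-fold) and no PU.1 peak in either library. It ranked among the 5 leading of the 96 IRF4-alone places called in all 3 IRF4 and no PU.1 library.
Ets1, another Ets factor, had a joint intronic place at 46.3, 74.6 and 45.6-fold for IRF4 and 687 and 870-fold for PU.1, with peak positions 1 bp apart. Foxo1, a regulator of recombination and B cell homing, had an IRF4-alone place in all 3 IRF4 libraries (43.7, 58.6 and 43.2-fold). Pou2af1 (the coactivator OCA-B), Mef2c and Runx1 had an IRF4-alone place in 2 IRF4 libraries and no joint place.

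Among antigen presentation genes 7 of 17 had a joint (6.31% of all genes) and 5 an IRF4-alone place (4.66%), and none had both. Cd74, on chromosome 18, encodes the invariant chain that guides MHC class II molecules. It had 3 joint places, each in all 5 libraries and each with an EICE. The one at its promoter had 21.0, 47.1 and 63.6-fold for IRF4 and 116 and 211-fold for PU.1. Icosl, a costimulatory ligand for T cells, also had 3 joint places, 2 of them in all 5 libraries. Near H2-DMb2, a class II peptide-loading gene, 1 place with an EICE was called in all IRF4 libraries (41.2, 111 and 126-fold) and in PU.1 replicate 1 at 204-fold, but not in replicate 2, and so counts as IRF4-alone. The same place accounts for H2-DMa and H2-DMb1. Cd86, a costimulatory ligand induced on activation, had 2 IRF4-alone places, each in 2 IRF4 libraries, and the one with the AICE lay 365 bp from a PU.1 place.

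In the plasma cell list the classes were nearly even. A joint place was near 6 of 20 genes (6.31% of all genes) and an IRF4-alone place near 7 (4.66%). Prdm1, which encodes Blimp-1, the driver of plasma cell differentiation, had an IRF4-alone place 83.9 kb after its start at 28.5-fold in IRF4 replicate 1 and 74.6-fold in replicate 2, without a peak in replicate 3, and no joint place. Ell2, an elongation factor used in antibody secretion, had one in all 3 IRF4 libraries (23.9 and 35.2-fold in replicates 1 and 2), and Edem1, Slamf7 and Cxcr4 had one in 2. Dnajb9, a chaperone of the endoplasmic reticulum, had a joint place at 24.2, 75.6 and 50.4-fold for IRF4 and 164 and 238-fold for PU.1. Zbtb20 and Tnfrsf13b, the receptor TACI, each had both kinds.

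The NF-kB and activation list had 6 of 20 genes near a joint (6.31% of all genes) and 5 near an IRF4-alone place (4.66%). Nfkb1 held a joint intronic place (45.0, 94.8 and 98.5-fold for IRF4, 418 and 941-fold for PU.1) and an IRF4-alone intronic place in all 3 IRF4 libraries (30.8, 107 and 76.7-fold). Nfkbia, the NF-kB inhibitor induced by NF-kB itself, had an IRF4-alone place 14 bp before its start in IRF4 replicates 2 (38.7-fold) and 3 (45.6-fold).
Il2ra, a subunit of the receptor for the IL-2 in the culture, had IRF4-alone places at its promoter (21.3, 50.9 and 64.9-fold) and 2.64 kb after its start (the AICE shown above, 53.8 and 53.9-fold in replicates 2 and 3), and a joint place with an EICE 19.99 kb after its start. Myc, a driver of cell growth, had the joint EICE place shown above at 58.0, 82.3 and 99.1-fold for IRF4 and 147 and 214-fold for PU.1. Mcl1, a survival factor, had 1 joint place in all 5 libraries.

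The AP-1 and BATF genes had joint places in 5 of 17 cases and IRF4-alone places in 0 of 17, where all genes had 6.31% and 4.66%. Batf3 had a joint place at 23.7, 115 and 72.9-fold for IRF4 and 66.2 and 124-fold for PU.1. Jdp2, a partner of Jun proteins, had one with both EICE and AP-1 letters at 26.2, 138 and 89.8-fold for IRF4, with low PU.1 enrichment of 19.9 and 34.7-fold. Atf3 had one in all 5 libraries.

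Of the interferon-stimulated genes, 5 of 23 had a joint place (6.31% of all genes) and 3 an IRF4-alone place (4.66%). The antigen-processing genes Tap1, Psmb8 and Psmb9 shared 1 joint place with an EICE, at 28.4, 58.6 and 50.4-fold for IRF4 and 120 and 171-fold for PU.1. Irf7, an interferon regulatory factor, had a joint place in IRF4 replicates 2 and 3 and both PU.1 libraries. Isg15, a ubiquitin-like protein, and Ifit1, which binds viral RNA, had IRF4-alone places at their promoters with ISRE letters, at 26.8 and 24.8-fold (Isg15) and 40.7 and 34.3-fold (Ifit1) in IRF4 replicates 2 and 3. Neither was called in replicate 1, and the nearest PU.1 place lay 35.0 kb and 38.8 kb away. The third, near Irf9, lay at the promoter of Psme2 and had PU.1 in replicate 2 alone.

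In the germinal centre list 5 of 20 genes had a joint place (6.31% of all genes) and 2 an IRF4-alone place (4.66%). In a list this short, the IRF4-alone count is near the share of all genes. Among the listed genes, Lmo2 had 2 IRF4-alone places, 1 of which no PU.1 library called. Of the ribosome and oxidative phosphorylation genes 4 of 20 had a joint place, but the place of Rps19 is that of Cd79a and the place of Rps14 is one of those of Cd74. Atp5o had a joint place in all 5 libraries that lies in an intron of Donson, 246 kb from the annotated start of Atp5o.
Of myeloid marker genes 3 of 20 had a joint place (Csf1r, Fcgr1 and Tlr4), and 1, Itgam, an IRF4-alone place that lay 254 bp from a PU.1 place. The Tlr4 place was called in all 5 libraries, with 45.6, 102 and 66.3-fold for IRF4 and 367 and 496-fold for PU.1. Of T and NK cell genes 0 of 20 had a joint place and 1, Tbx21, an IRF4-alone place, and of erythroid genes 0 of 15 had either. Over all genes the shares were 6.31% for joint and 4.66% for IRF4-alone places. In lists this short, the T, NK and erythroid counts are near those shares. The B cell marker genes Cd79a, Cd79b, Ms4a1, Pax5 and Ebf1 each had a joint place. Expression was not measured in these samples, so the cell type itself was not tested.

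Among the 460 joint places called in all 5 libraries, the strongest lay in or near genes outside those lists. Ranked by enrichment within each library, the leading place was in an intron of Snx29, a sorting nexin, with 115, 210.03 and 149-fold for IRF4 and 461 and 635-fold for PU.1. The next lay in introns of Setbp1 (96.2, 186 and 161-fold for IRF4, 528 and 776-fold for PU.1), of Heg1 (84.3, 149 and 165-fold, 367 and 593-fold) and of Ndst1 (102, 137 and 182-fold, 322 and 638-fold). These 4 places held an EICE, and their IRF4 and PU.1 peak positions lay between 1 and 28 bp apart.
The leading IRF4-alone places were taken from the 96 called in all 3 IRF4 and no PU.1 library. The first lay 25.9 kb before Ezh2, the histone methyltransferase of germinal centre B cells (72.9, 184 and 208-fold). The next lay 47.6 kb before Id2, an inhibitor of E proteins (67.0, 306 and 170-fold), at the promoter of Zfp91 (69.7, 91.9 and 77.4-fold) and near Gpr15 (54.2, 134 and 99.5-fold).
Leading PU.1-alone places had PU.1 enrichments of 837 and 1129-fold in an intron of Lrch1, 894 and 1043-fold near Pmaip1, 741 and 1147-fold near Cd81, 794 and 1006-fold in Piwil2, and 741 and 1079-fold in Tbc1d14. No IRF4 library had a peak at these places.

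Most genes with a joint place had a single one, and clustering of the places along the genome was not tested. Of the 1402 genes with one, 1225 had 1, 148 had 2 and 29 had 3 or more. The genes with most were 5031414D18Rik, the glutamate transporter gene Slc1a2, Med12l and Gm20388 with 5 each, the last a model of 4435 kb that spans many genes. Gm4968, Ptprj (the phosphatase CD148), the anti-apoptotic gene Bcl2, Tg and Rad51l1 had 4 each. The genes of the factors themselves had neither joint nor IRF4-alone places: Irf4 and Sfpi1 each had 4 PU.1-alone places.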

How the data were processed

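IRF4 and PU.1 ChIP-seq peak lists of day 1 were analysed: 3 IRF4 and 2 PU.1 libraries and 1 combined list per factor. The authors used QuEST to compute enrichment against input after mapping to mm9, per the series' design text; mm9 is also named in the submitters' processing notes. No aligner, QuEST version or threshold was found in the labels or headers. Each deposited line gives an interval, a peak position and the authors' maximum enrichment, a linear fold (ratio) over input, used only within a list. The lowest value was 20.9 to 21.9 in the IRF4 and 15.0 to 15.1 in the PU.1 lists, so the lists end at different levels. Peaks were called per library. Lines of the combined lists are copies of library lines with a partner in another library: 767 from IRF4 replicate 1 and 1729 from replicate 2, and all PU.1 lines from replicate 1. Repeated lines (7, PU.1) were counted once. No label or header says whether positions count from 0 or 1, and they were read as counting from 1.

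Sequence came from the mm9 genome and genes from GENCODE M1 on it (22225 protein-coding symbols). Promoters are positions within 1 kb of a transcript start of these genes, and kilobase distances for listed genes run from the annotated 5′ start of the gene. Of 251 listed symbols all matched, 3 through another name. Tests were exact permutations over libraries, two-sided. List genes were named for a joint place in all 5 libraries, or an IRF4-alone place in at least 2 IRF4 and no PU.1 library. Named too were the 5 leading places per class by mean rank, the genes with most joint places, and Irf4 and Sfpi1. Ranking was among joint places in all 5 libraries, IRF4-alone places in all 3 IRF4 and no PU.1 library, and PU.1-alone places in no IRF4 library. Other names were added after their values were seen. Members and lists were chosen with earlier results of these data known. Alternatives were the joint distance, a stricter enrichment, partners in any library, window, promoter and gene distances, equal list lengths, and leaving out each library. The code passed 47 of 47 checks on simulated data. Python 3.11.15, numpy 2.4.6, pandas 2.3.3, scipy 1.17.1 and pysam 0.24.0 were used. Day 3 libraries and input were not analysed here. Some items that the rule names are not reported here.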

Additional observations from a re-analysis of the deposited data

How the results depend on the processing

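Depth is unknown and the IRF4 lists ranged from 825 to 9326 peaks, so an absent peak cannot be told from one below the threshold. With joint limits of 100 and 500 bp, the stronger 50% of each list, and a partner in any library, PU.1 lay at 52.6%, 60.1%, 48.5% and 64.3% of IRF4 places and IRF4 at 5.97%, 6.86%, 5.51% and 15.7% of PU.1 places. Leaving out each library gave 55.1 to 78.7% and 2.39 to 5.81%, the extremes without IRF4 replicate 1 and replicate 2 for the first and without replicates 2 and 1 for the second.

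Genes near joint places numbered 642 with the stronger 50% of each list, 865 within 5 kb, 2411 within 50 kb and 537 to 1501 without a library; those near IRF4-alone places 605, 662, 1804 and 140 to 1010. In both, the low values are those without IRF4 replicate 2 (537 and 140) or 3 (540 and 142), where only places shared with the short replicate 1 remain. Genes near PU.1-alone places numbered 7558 with the stronger 50%, and 11448 to 14554 without a library.

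The IRF4 minus PU.1 difference in EICE share turned to -5.88 with the top 825 peaks of each library and ranged from -2.53 (without IRF4 replicate 1) to 10.9 percentage points. Within libraries, the joint minus IRF4-alone difference in ISRE share, 1.97, turned to -0.636 with the stronger 50% and -0.250 with the top 825 peaks. That in promoter share turned to 0.731 at 500 bp, 2.11 with a partner in any library and 2.46 with promoters of 5 kb, and ranged from -0.536 to 1.44 without a library. The causes were not tested. The other tested differences, among them the EICE share of joint minus IRF4-alone peaks (27.8 to 34.1 without a library) and AP-1 (-18.0 to -3.57), kept their direction under the alternatives run, though not always their size. With the stronger 50% of each list, the number of joint places moved for 18 of 26 named genes. None of the 12 tests passed an adjusted 0.05 in any setting, which their design does not allow.

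Only replicate numbers 1 and 2 occur for both factors, and the labels do not tie them. IRF4 replicate 2 had PU.1 replicate 1 at 28.5% and replicate 2 at 30.1% of its peaks. With a replicate block the IRF4 minus PU.1 differences were -6.36 (promoter), 10.9 (EICE), 12.99 (AP-1), 0.848 (ISRE) and -16.3 (PU.1 site) percentage points. An exact sign-flip test over 2 pairs cannot give p below 0.5, so this setting could not change a call.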
